A study of Mus musculus with 8 samples.

Results

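The miR-10, miR-99/100 and miR-125 superfamily is a set of miRNAs of common descent, and its 10 members measured here are a small part of the 422 miRNAs in the deposited table. The members were taken by name. They are mmu-miR-10a-5p, mmu-miR-10b-5p, mmu-miR-99a-5p, mmu-miR-99b-5p, mmu-miR-99b-3p, mmu-miR-100-5p, mmu-miR-125a-5p, mmu-miR-125a-3p, mmu-miR-125b-5p and mmu-miR-125b-2-3p, and all 10 were present with reads in each library. Small RNAs were sequenced from the hippocampus, punched from brain slices, of adult male mice, 12 weeks old and untreated, of 2 inbred strains. The groups were 4 BTBR T+ Itpr3tf/J mice (BTBR), an inbred strain with autism-like behaviour, and 4 C57BL/6J mice (B6), the control strain, with 1 library per mouse. The strains differ throughout the genome, so that a difference between them cannot be tied to a single allele, and in RNA from whole tissue, fewer cells of a type and less RNA per cell cannot be told apart. The comparison addressed here is whether the paralogues of miR-100-5p moved with it.

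miRNAs are RNAs of about the length of the sequences shown here that guide Argonaute proteins to partly complementary mRNAs, mostly through the seed, bases 2 to 8 from the 5′ end. Each hairpin precursor can yield an arm from its 5′ side (5p) and one from its 3′ side (3p), of which one usually dominates. miR-10 and miR-100 are among the oldest animal miRNAs, and miR-125 is a relative of lin-4, the first miRNA described. In vertebrates miR-99/100 and miR-125 genes lie in clusters with let-7 genes, while miR-10 genes lie within the Hox clusters. miR-99 and miR-100 are known to repress Mtor and Igf1r, and miR-125a-5p and miR-125b-5p are known in neurons for repressing the synaptic mRNAs Dlg4 and Grin2a.

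The mature sequences of the 5p members are shown because the paralogues differ by few bases, which bears on how they act and on how reads are told apart. They were taken from RefSeq (GRCm38.p6), in which all 10 members were found, and capitals mark the seed.
mmu-miR-10a-5p: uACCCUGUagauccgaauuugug
mmu-miR-10b-5p: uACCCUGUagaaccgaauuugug
mmu-miR-99a-5p: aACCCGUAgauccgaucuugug
mmu-miR-100-5p: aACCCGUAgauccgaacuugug
mmu-miR-99b-5p: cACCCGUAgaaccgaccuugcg
mmu-miR-125a-5p: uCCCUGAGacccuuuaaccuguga
mmu-miR-125b-5p: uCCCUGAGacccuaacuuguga

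The 7 sequences fall into 3 seed groups. miR-99a-5p, miR-99b-5p and miR-100-5p share ACCCGUA, which no other miRNA of the table with a known sequence carried. miR-10a-5p and miR-10b-5p share ACCCUGU, and miR-125a-5p and miR-125b-5p share CCCUGAG with miR-351-5p and miR-6367. Counting positions from 1 at the 5′ end, miR-100-5p differs from miR-99a-5p by U16A, with miR-99a-5p as the reference. miR-10b-5p differs from miR-10a-5p by U12A. miR-99b-5p differs from miR-99a-5p by A1C, U11A, U16C and U21C, while miR-125a-5p and miR-125b-5p share their first 13 bases and are 3 edits apart. miR-100-5p and miR-10a-5p are also 3 edits apart, although their seeds differ. How reads with a mismatch, or reads that match several miRNAs, were shared among such neighbours is not given in the sources used here, and reads assigned to the wrong one of a pair that differs at 1 base cannot be told apart in the counts.

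The 3p members are shown because they identify the hairpin they come from. miR-125b-5p is made from 2 hairpins with the same mature sequence, whereas each 3p arm belongs to 1 hairpin, and the 3p arms share no seed with each other.
mmu-miR-99b-3p: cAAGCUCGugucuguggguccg
mmu-miR-125a-3p: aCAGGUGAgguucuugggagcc
mmu-miR-125b-2-3p: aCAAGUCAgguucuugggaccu
mmu-miR-125b-1-3p: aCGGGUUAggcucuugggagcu

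The genes of the superfamily lie in 3 clusters and 2 Hox loci (GENCODE annotation of GRCm38, all on the plus strand). The hairpin of miR-100 lies at chr9:41531425-41531504, 5211 bases upstream of let-7a-2 and further upstream of miR-125b-1 at chr9:41581926-41582002, all in introns of the noncoding gene 3110039I08Rik, of which 13 transcripts span miR-100 and 24 span miR-125b-1. The miR-100 hairpin also overlaps an exon of the lincRNA Gm48742 on the opposite strand, and that of miR-125b-1 an exon of the sense intronic gene Gm28119 on the same strand. miR-99a at chr16:77598936-77599000, let-7c-1 at 656 bases from it and miR-125b-2 at chr16:77646273-77646343 lie in introns of the noncoding gene Mir99ahg. The third cluster is compact. miR-99b at chr17:17830188-17830257, let-7e and miR-125a at chr17:17830812-17830879 follow each other with gaps of 94 and 367 bases within Spaca6, where miR-125a overlaps an exon in 1 of 3 transcripts and the other hairpins are intronic. miR-10a at chr11:96317165-96317274 lies between genes, and the nearest, Hoxb4, is 992 bases away. miR-10b at chr2:74726070-74726137 lies in introns of Hoxd3 and Hoxd4.

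The libraries held between 2247482 and 7904990 reads counted on miRNAs, and the members together took 0.987% to 1.91% of the counts in B6 and 1.28% to 2.51% in BTBR mice. Both upper values came from replicate 2 of the strain. BTBR replicate 2 had the fewest counts and the lowest median Spearman correlation with the other libraries (0.938, against up to 0.972, across miRNAs). The brain list (miR-124-3p, miR-9-5p, miR-128-3p and miR-138-5p) was present in every library, at 48540 to 77490 summed CPM in B6 and 57020 to 67060 in BTBR mice. The choroid plexus list of 8 miRNAs reached 39780 summed CPM in B6 replicate 1 and 16350 in B6 replicate 2, against 5203 to 9543 in the other 6 libraries. Levels are given as CPM (counts divided by the TMM-normalized library size and scaled to a common total). Levels of different miRNAs also depend on how well each is captured during library preparation, so that their order is an order of read counts.

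The members covered a wide range of levels. miR-125a-5p was the highest in every library, with 6007 to 17230 CPM, and ranked 17 of the 422 miRNAs by mean level. miR-125b-5p followed with 3462 to 4397 CPM and then miR-99b-5p with 444 to 2812 CPM, and these places were the same in all 8 libraries. miR-100-5p and miR-99a-5p came next and were not ordered beyond their spread, since miR-100-5p was the higher in 3 of the 8 libraries, B6 replicates 1 to 3. miR-125b-2-3p lay below both in every library. miR-99b-3p, miR-125a-3p, miR-10b-5p and miR-10a-5p were all low, with means of 29.1, 16.2, 13.4 and 12.4 CPM over the 8 libraries. Among these, miR-99b-3p lay above miR-125a-3p in 7 of the 8 libraries, while miR-10b-5p exceeded miR-10a-5p in 3. For miR-99b and miR-125a, whose hairpins have both arms among the members, the 5p arm was the higher in every library.

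**Figure D1:**
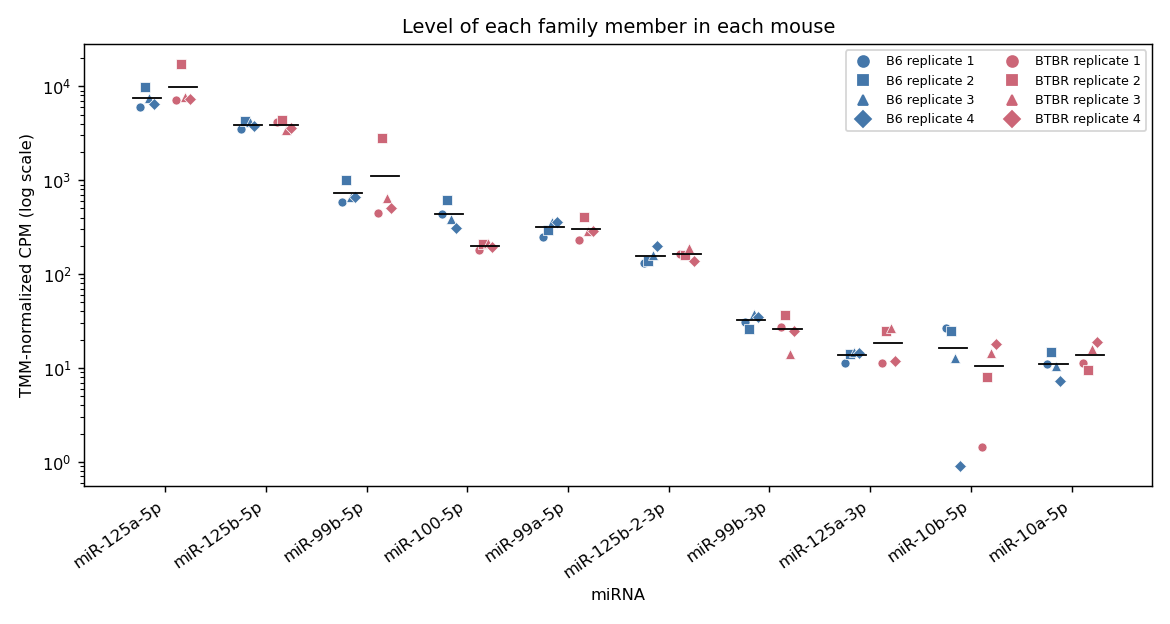
Level of each of the 10 members in each mouse, in TMM-normalized CPM on a log axis, with B6 mice in blue, BTBR mice in red, 1 marker shape per replicate number and a bar at each strain's mean (n = 4). The 4 BTBR mice lie below all B6 mice in miR-100-5p, and the strains overlap in the other 9 members.

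miR-100-5p was lower in BTBR than in B6 mice, and it was the only member past the FDR cutoff of 0.1. Its level was 439, 611, 386 and 313 CPM in B6 replicates 1 to 4 and 179, 211, 214 and 196 CPM in BTBR replicates 1 to 4. Every BTBR mouse lay below every B6 mouse, and the B6 mice were spread more widely (437 ± 127 CPM against 200.2 ± 16.04 CPM, SD, n = 4). The log2 fold change was −1.13 (standard error 0.23, 95% interval −1.63 to −0.62, adjusted p = 0.0426 by the quasi-likelihood test of edgeR, Benjamini-Hochberg over the 422 miRNAs). A two-sided exact permutation test of log2(CPM + 0.5) gave p = 0.0286, the smallest value that 4 mice against 4 can give.

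The call of miR-100-5p was lost without BTBR replicate 1, 3 or 4, with adjusted p of 0.125, 0.133 and 0.123 (edgeR, Benjamini-Hochberg), while the log2 fold change stayed between −1.17 and −1.08. It was also lost when counts were scaled by library size only (log2 fold change −1.02, adjusted p = 0.215), a scaling that raised the median of all miRNAs by 0.145. The choroid plexus list lay between 5203 and 39780 summed CPM in B6 and between 5243 and 9543 in BTBR mice, and the red blood cell list between 302.5 and 852.7 in B6 and between 530.9 and 1371 in BTBR mice. All 8 and all 4 miRNAs of these lists were measured, and their part in the result was not tested. Without B6 replicate 1, where the choroid plexus list was highest, the log2 fold change of miR-100-5p was −1.19 (adjusted p = 0.0433 by the same edgeR test, Benjamini-Hochberg). Without B6 replicate 2, which had the second highest choroid plexus sum and the highest red blood cell sum of the B6 mice, it was −0.89 (adjusted p = 0.0582 by the same edgeR test and adjustment).

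Over all 422 miRNAs, 1.66% passed the cutoff in either direction and 0.474% passed it lower in BTBR mice, and among the 10 members miR-100-5p was the 1 that passed. In 6.64% of all miRNAs the strains did not overlap, and among the members this held for miR-100-5p only. Before adjustment, 10.9% of all miRNAs and 1 of the 10 members had a p under 0.05 in edgeR's quasi-likelihood test. The fitted log2 fold changes were below 0 in 5 members and above 0 in 5. Their median was 0.03, beside 0.02 over all miRNAs, and the median size without sign was 0.38, beside 0.28.

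**Figure D2:**
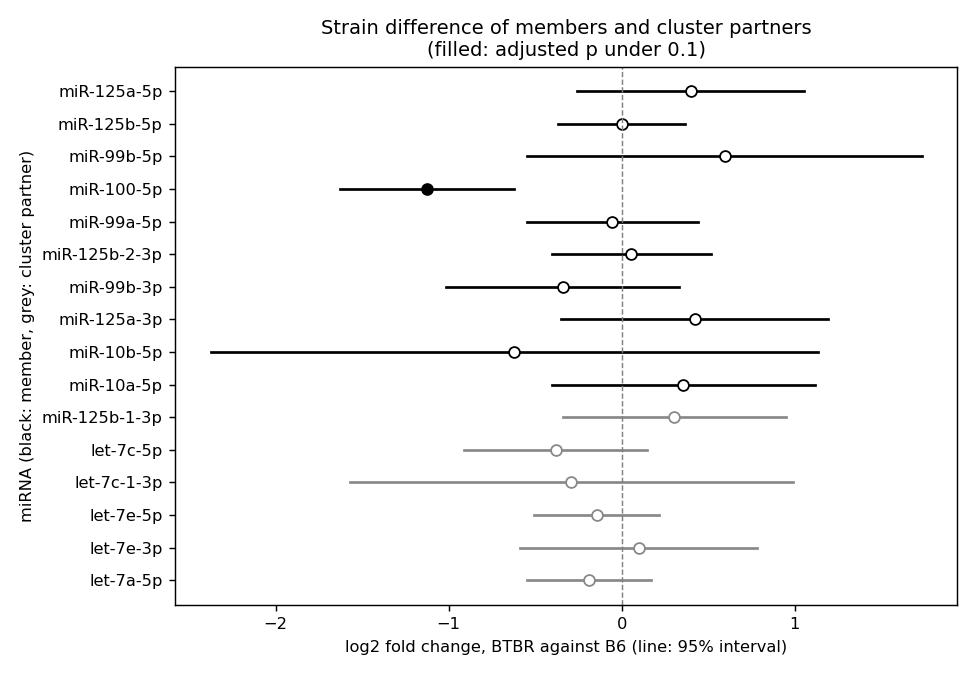
Log2 fold change of BTBR against B6 mice with its 95% interval from edgeR's quasi-likelihood fit, for the 10 members (black) and 6 cluster partners (grey), with a filled point for an adjusted p under 0.1. The interval of miR-100-5p, −1.63 to −0.62, lies below 0, and those of the other members and of all partners span 0.

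The seed relatives of miR-100-5p did not pass the cutoff. miR-99a-5p, which differs from miR-100-5p at 1 base, had 251, 294, 360 and 356 CPM in B6 replicates 1 to 4 and 233, 409, 286 and 290 CPM in BTBR replicates 1 to 4. The strains overlapped, and the highest and the lowest of the 8 mice were both BTBR. The log2 fold change was −0.05 (95% interval −0.55 to 0.44, adjusted p = 0.957 by edgeR quasi-likelihood, Benjamini-Hochberg), an interval that does not contain the value of miR-100-5p.

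miR-99b-5p, the most abundant of the 3 miRNAs with this seed, had 588, 993, 668 and 669 CPM in B6 replicates 1 to 4 and 444, 2812, 646 and 512 CPM in BTBR replicates 1 to 4. BTBR replicate 2 stood far above all other mice, and the other 3 BTBR mice lay within or below the B6 range. The log2 fold change was 0.60 (95% interval −0.54 to 1.74, adjusted p = 0.714 by edgeR quasi-likelihood, Benjamini-Hochberg). Without BTBR replicate 2 it was −0.48 and still did not pass (adjusted p = 0.419 by the same edgeR test and adjustment), so that the sign rested on 1 library.

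Among the miR-125 members, miR-125a-5p had 6007, 9900, 7519 and 6422 CPM in B6 replicates 1 to 4 and 7075, 17230, 7727 and 7353 CPM in BTBR replicates 1 to 4. Replicate 2 was the highest of each strain, as in miR-99b-5p from the same cluster. The log2 fold change was 0.40 (95% interval −0.26 to 1.06, adjusted p = 0.676 by edgeR quasi-likelihood, Benjamini-Hochberg) and −0.04 without BTBR replicate 2. miR-125b-5p had 3477, 4231, 4136 and 3799 CPM in B6 replicates 1 to 4 and 4167, 4397, 3462 and 3615 CPM in BTBR replicates 1 to 4. It varied little between mice, and only 1.18% of all miRNAs had a lower fitted dispersion. Its strain means were nearly the same, 3911 ± 343 CPM for B6 and 3910 ± 444 CPM for BTBR (SD, n = 4), and the 95% interval of the log2 fold change, −0.36 to 0.36, was the narrowest among the members.

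The 3p arms lay below their 5p arms in level and did not pass the cutoff either. miR-125b-2-3p, from the miR-99a cluster, had 132 to 197 CPM in B6 and 139 to 189 CPM in BTBR mice (log2 fold change 0.06, 95% interval −0.40 to 0.51). miR-125a-3p had 11.3 to 14.9 CPM in B6 and 11.3 to 26.5 CPM in BTBR mice (log2 fold change 0.42, 95% interval −0.35 to 1.19), and its upper BTBR values came from replicates 2 and 3. miR-99b-3p had 26.3 to 37.9 CPM in B6 and 14.3 to 36.8 CPM in BTBR mice (log2 fold change −0.34, 95% interval −1.01 to 0.33). The adjusted p of these 3 arms lay between 0.713 and 0.949 (edgeR quasi-likelihood, Benjamini-Hochberg).

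miR-10a-5p and miR-10b-5p, the members encoded in Hox clusters, had the lowest means over the 8 libraries. The order did not hold in each library, since miR-125a-3p lay above miR-10b-5p in 5 of them. miR-10a-5p had 11.1, 14.9, 10.5 and 7.19 CPM in B6 replicates 1 to 4 and 11.3, 9.43, 15.8 and 19.1 CPM in BTBR replicates 1 to 4 (log2 fold change 0.36, 95% interval −0.40 to 1.12). miR-10b-5p had 26.9, 24.6, 12.9 and 0.899 CPM in B6 replicates 1 to 4 and 1.44, 8.08, 14.5 and 18.05 CPM in BTBR replicates 1 to 4. It thus spread widely within each strain, and 99.1% of all miRNAs had a lower fitted dispersion. B6 replicate 4 held 4 reads of miR-10b-5p, with an exact Poisson 95% interval of 0.245 to 2.30 CPM, and BTBR replicate 1 held 7 reads, with an interval of 0.579 to 2.97 CPM. These intervals, which cover counting error only, lie below those of the other 6 libraries, which ran from 4.79 to 31.7 CPM. The log2 fold change of −0.62 had a 95% interval of −2.37 to 1.13, which contains both 0 and the value of miR-100-5p, so that a difference as large as that of miR-100-5p was not detectable in miR-10b-5p. The adjusted p was 0.731 for miR-10a-5p and 0.800 for miR-10b-5p (edgeR quasi-likelihood, Benjamini-Hochberg).

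Of the 9 other members, 8 had a 95% interval that lay wholly above the log2 fold change of miR-100-5p, and miR-10b-5p was the exception. This count takes the estimate of miR-100-5p without its own interval, which overlapped those of miR-99b-3p and miR-10b-5p. The share of all miRNAs for which it holds was not computed. In exact permutation tests of log2(CPM + 0.5) over the 70 assignments of the mice, the p-values of these 9 members lay between 0.286 and 0.971.

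Whether a relative moved with miR-100-5p was asked directly by the ratio of their counts within each library, which does not depend on normalization. The 9 ratios share miR-100-5p, whose change was known when it was set as the numerator, and so partly restate it. For 7 of the 9, every BTBR mouse had a lower ratio than every B6 mouse (two-sided exact permutation test, p = 0.0286 each, adjusted p = 0.0367 by Benjamini-Hochberg over the 9 ratios). The 7 partners were miR-99a-5p, miR-99b-5p, miR-125a-5p, miR-125a-3p, miR-125b-5p, miR-125b-2-3p and miR-10a-5p. Since miR-100-5p by itself did not overlap between the strains, its ratio to an unchanged miRNA can separate them too. The share of all miRNAs whose ratio to miR-100-5p separates the strains was not computed. The count of 7 therefore cannot be read as particular to the relatives. The differences in the mean log2 ratio, BTBR minus B6, ran from −1.02 against miR-99a-5p to −1.43 against miR-10a-5p. Against miR-99b-5p the difference was −1.25, and −0.67 without BTBR replicate 2.

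For miR-99a-5p, the closest relative, there were 1.75, 2.08, 1.07 and 0.878 reads of miR-100-5p per read of miR-99a-5p in B6 replicates 1 to 4. In BTBR replicates 1 to 4 there were 0.768, 0.517, 0.750 and 0.678. B6 replicate 4 lay close above BTBR replicate 1, and the other B6 mice were further away. Against miR-125b-5p, the least variable partner, the ratio was 0.126, 0.144, 0.0934 and 0.0824 in B6 and 0.0430, 0.0480, 0.0619 and 0.0543 in BTBR mice, and these groups did not overlap (difference −1.08 on the log2 scale).

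The other 2 ratios overlapped between the strains. Against miR-99b-3p the difference was −0.69 (exact permutation test, p = 0.171, adjusted p = 0.193), and BTBR replicate 3, with 15.0 reads of miR-100-5p per read of miR-99b-3p, lay among the B6 mice at 8.99 to 23.2. Without BTBR replicate 3 the difference was −0.98 and passed the threshold of 0.1 (exact permutation test, adjusted p = 0.0643). Against miR-10b-5p the difference was −0.74 (exact permutation test, p = 0.514), with ratios of 348 in B6 replicate 4 and 125 in BTBR replicate 1 against 10.9 to 29.9 in the other 6 mice. Without B6 replicate 4 this difference was 0.20, above 0.

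**Figure D3:**
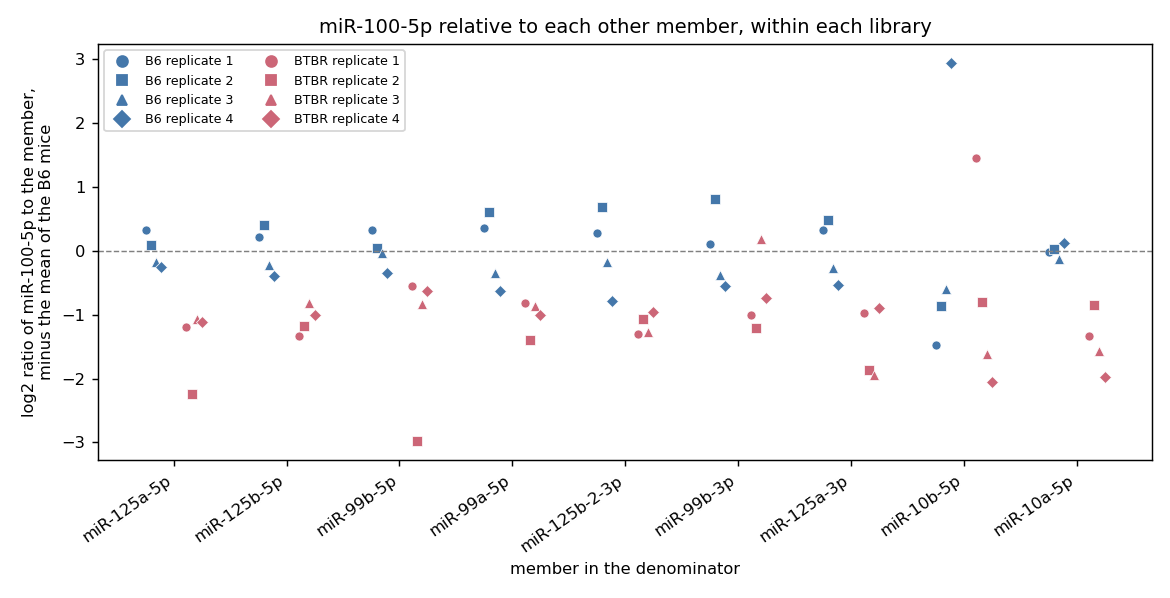
Log2 ratio of miR-100-5p to each other member within each library, with the mean of the 4 B6 mice set to 0, B6 mice in blue and BTBR mice in red. The BTBR mice lie below all B6 mice for 7 of the 9 partners and overlap with them for miR-99b-3p and miR-10b-5p.

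Within the group that shares ACCCGUA, the composition differed between the strains while the sum did not separate them. The summed level of miR-99a-5p, miR-99b-5p and miR-100-5p was 1278 to 1898 CPM in B6 mice. In BTBR mice it was 856 to 1147 CPM in replicates 1, 3 and 4, below all B6 mice, and 3432 CPM in replicate 2, above all of them. miR-100-5p made up 34.3%, 32.2%, 27.3% and 23.4% of that sum in B6 replicates 1 to 4 and 20.9%, 6.15%, 18.7% and 19.7% in BTBR replicates 1 to 4. The shares did not overlap (29.3% ± 4.92 and 16.4% ± 6.87, SD, n = 4), and they restate the ratios above, so no test was added. In BTBR replicate 2, miR-99b-5p alone made up 82.0% of the reads with this seed, against 46.0% to 56.4% in the other 7 libraries.

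**Figure D4:**
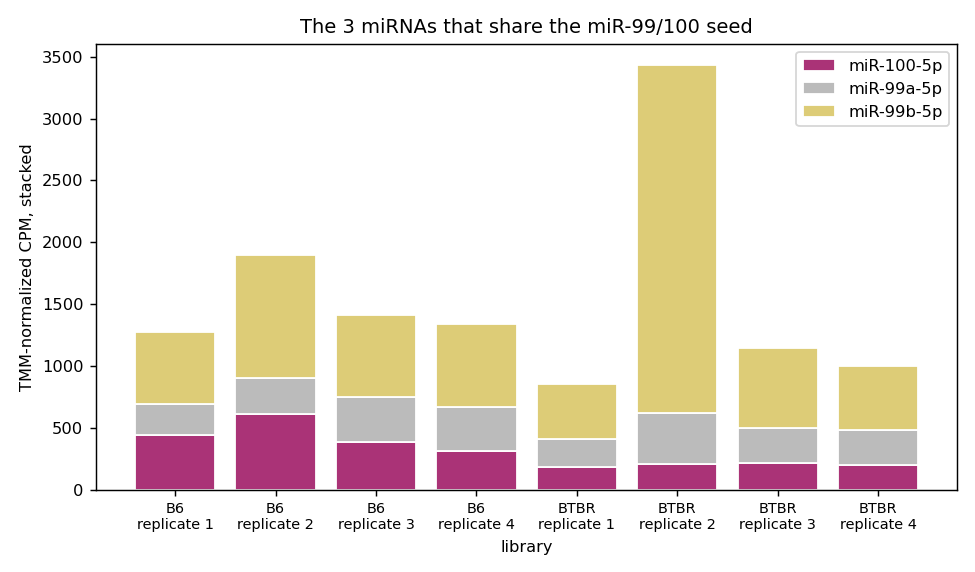
Stacked TMM-normalized CPM of the 3 miRNAs that share the miR-99/100 seed, per library. miR-100-5p makes up 23.4% to 34.3% of the bar in B6 mice and 6.15% to 20.9% in BTBR mice, and the bar of BTBR replicate 2, at 3432 CPM, is the tallest through miR-99b-5p.

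The other seed groups showed no such separation. The group that shares CCCUGAG summed to 9521 to 14180 CPM in B6 and 10990 to 21650 CPM in BTBR mice. miR-125a-5p made up 62.7% to 69.8% of it in B6 and 62.7% to 79.6% in BTBR mice, and miR-351-5p and miR-6367 made up at most 0.375% and 0.0130%. The miR-10 group summed to 38.0, 39.5, 23.4 and 8.09 CPM in B6 replicates 1 to 4 and to 12.7, 17.5, 30.3 and 37.2 CPM in BTBR replicates 1 to 4. The strains covered nearly the same range.

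The partners of miR-100-5p in its own cluster were not called. miR-125b-1-3p, whose hairpin lies in the same host gene, had 61.3 to 91.3 CPM in B6 mice. In BTBR mice it had 66.6 to 73.9 CPM in replicates 1, 3 and 4 and 152 CPM in replicate 2. The log2 fold change was 0.31 (95% interval −0.34 to 0.95, adjusted p = 0.731 by edgeR quasi-likelihood, Benjamini-Hochberg), and without BTBR replicate 2 it was −0.08. The reads of miR-100-5p per read of miR-125b-1-3p were 6.16, 6.69, 5.53 and 5.10 in B6 replicates 1 to 4 and 2.48, 1.39, 3.22 and 2.66 in BTBR replicates 1 to 4. These ranges did not overlap, but this ratio was chosen after the values were seen and was not tested. let-7a-5p, which is also made from hairpins outside this cluster, had a log2 fold change of −0.19 (95% interval −0.55 to 0.17).

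The 6 cluster partners were let-7a-5p, let-7c-5p, let-7c-1-3p, let-7e-5p, let-7e-3p and miR-125b-1-3p. Over all miRNAs, 1.66% passed the cutoff and 10.9% had an unadjusted p under 0.05, so that few calls are expected among 6. Of the partners, 0 passed the cutoff, with adjusted p between 0.617 and 0.943 (edgeR quasi-likelihood, Benjamini-Hochberg), and 0 had an unadjusted p under 0.05. let-7c-5p, which is made from let-7c-1 in the miR-99a cluster and also from a hairpin outside it, had the lowest of these p-values, with a log2 fold change of −0.38 (95% interval −0.91 to 0.15). With replicate 2 of both strains left out, an alternative chosen after seeing the data, let-7c-5p was past the cutoff (log2 fold change −0.63, adjusted p = 0.0672 by the same edgeR test and adjustment).

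In the compact cluster of miR-99b, let-7e and miR-125a, 2 of the 6 arms shared a pattern by mouse. miR-99b-5p and miR-125a-5p were highest in replicate 2 of each strain, and their log2 levels correlated over the 8 libraries (Pearson's r 0.937, and 0.966 with the strain means removed, as a description over libraries of differing depth). miRNAs outside the cluster had similar values, with 0.959 (0.955 with the strain means removed) for miR-125a-5p and miR-125b-1-3p of the miR-100 cluster, and 0.960 (also 0.960) for miR-99b-5p and miR-142a-3p, a miRNA named after its values were seen. let-7e-5p, which lies between them, had 17244, 13894, 19655 and 18247 CPM in B6 replicates 1 to 4 and 15767, 15044, 14837 and 16872 CPM in BTBR replicates 1 to 4. Its lowest B6 value was that of replicate 2, and replicate 2 of BTBR lay within the range of the other BTBR mice. The reads of miR-99b-5p per read of let-7e-5p were therefore 0.0715 in B6 replicate 2 and 0.187 in BTBR replicate 2, against 0.0282 to 0.0436 in the other 6 libraries. For miR-125a-5p they were 0.713 and 1.15, against 0.348 to 0.521.

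The count ratio of the arms of a hairpin varied between libraries. The 3p arms were low, with 57 to 207 reads of miR-99b-3p and 55 to 106 reads of miR-125a-3p in a library. How much of the variation is counting error was not estimated. There were 76.4 reads of miR-99b-5p per read of miR-99b-3p in BTBR replicate 2, 45.3 in BTBR replicate 3 and 37.8 in B6 replicate 2, and 16.4 to 20.6 in the other 5 libraries. For miR-125a the 5p arm had 291 reads per read of the 3p arm in BTBR replicate 3 and 440 to 705 in the other libraries. For miR-125b-5p, which sums 2 hairpins, there were 18.3 to 30.5 reads per read of miR-125b-2-3p. miR-125b-2-3p exceeded miR-125b-1-3p in every library, from 1.07-fold in BTBR replicate 2 to 3.21-fold in B6 replicate 4.

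**Figure D5:**
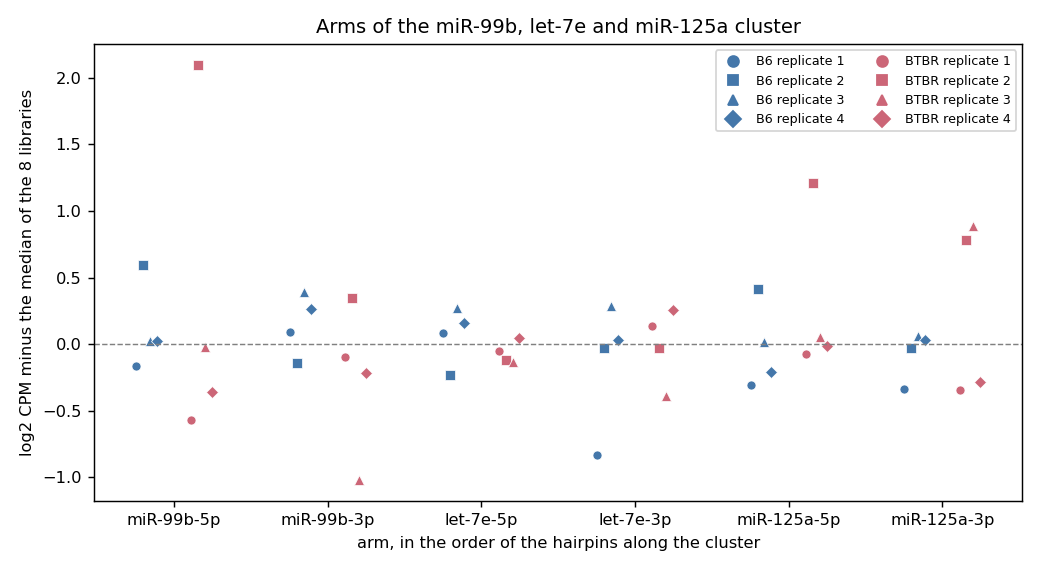
Log2 CPM of the 6 arms of the miR-99b, let-7e and miR-125a cluster in each library, minus the median of the 8 libraries, with the arms in the order of their hairpins. Replicate 2 is the highest library of its strain in miR-99b-5p and miR-125a-5p, where it reached 2812 and 17230 CPM in BTBR, and not in let-7e-5p or let-7e-3p.

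Of 10 ratios within a hairpin, a cluster or a pair of paralogues, 0 passed the threshold of 0.1 between the strains (two-sided exact permutation tests, Benjamini-Hochberg adjusted p between 0.914 and 0.971), and 0 had an unadjusted p under 0.05. They were the 5p to 3p ratios of miR-99b, miR-125a and miR-125b-2, the ratios of miR-125b-2-3p to miR-125b-1-3p, miR-10a-5p to miR-10b-5p, miR-99a-5p to miR-99b-5p and miR-125a-5p to miR-125b-5p, and those of miR-99a-5p to let-7c-5p and of miR-99b-5p and miR-125a-5p to let-7e-5p. For miR-125a-5p to miR-125b-5p the difference, BTBR minus B6, was 0.32 on the log2 scale (exact permutation test, p = 0.343), with 1.70 to 3.92 reads of miR-125a-5p per read of miR-125b-5p in BTBR and 1.69 to 2.34 in B6 mice. For miR-10a-5p to miR-10b-5p it was 0.68 (exact permutation test, p = 0.457), and the ratio was 8 in B6 replicate 4 and 7.86 in BTBR replicate 1 against 0.414 to 1.17 in the other 6 mice. For miR-99a-5p to miR-99b-5p it was −0.23, with 0.296 to 0.540 reads of miR-99a-5p per read of miR-99b-5p in B6 and 0.145 to 0.566 in BTBR mice.

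Among all other miRNAs of the table, those with the pattern most like miR-100-5p over the 8 libraries, by Pearson's r of log2(CPM + 0.5), were miR-151-5p (0.874), miR-204-3p (0.805) and miR-298-5p (0.799). miR-204-3p belongs to the choroid plexus list, which was highest in B6 replicates 1 and 2. miR-151-5p had 4019 to 5768 CPM in B6 mice and 3398 to 3995 CPM in BTBR mice. The least alike were miR-200a-3p (−0.918), miR-708-5p (−0.875) and miR-200c-3p (−0.846), which had their higher levels in BTBR mice. These values rest on both strains and shift when the strain means are removed, to 0.762, 0.569 and 0.238 for the first 3 and to −0.538, −0.493 and 0.763 for the others. None of the members was among them. The r of the 9 other members with miR-100-5p ran from −0.389 (miR-125b-2-3p) to 0.427 (miR-10b-5p), with 0.0463 for miR-99a-5p. With the strain means removed, it ran from −0.565 (miR-125b-2-3p) to 0.747 (miR-10b-5p), with 0.648 for miR-10a-5p, 0.464 for miR-125a-5p and −0.165 for miR-99a-5p. The 0.747 of miR-10b-5p and 0.648 of miR-10a-5p stand beside 0.762 for miR-151-5p, which was chosen by its r over both strains. As a description over 8 libraries, these values rest mostly on the B6 mice. miR-100-5p ranged 1.95-fold from lowest to highest in B6 and 1.2-fold in BTBR mice.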

How the data were processed

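Small RNA libraries from single mouse hippocampi were made with the Illumina TruSeq Small RNA kit. The authors removed adapters, checked reads with FastQC 0.11.2, mapped them to GRCm38 with Bowtie within sRNAbench, kept reads that fell inside miRBase coordinates, and deposited whole-number counts per miRNA for the 8 libraries, without normalization and without molecular identifiers. Mice were grouped by the strain in their labels, all miRNAs had reads in all libraries, and no filter was applied.

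The counts of all 422 miRNAs were analysed with edgeR 4.0.16 in R 4.3.3 as in the study's methods, with TMM normalization and an FDR cutoff of 0.1. Which of the tests in edgeR the study ran is not given in the sources used here. The quasi-likelihood test was used without covariates (common dispersion 0.137), with p-values adjusted by Benjamini-Hochberg over all 422. Levels are CPM after TMM normalization. Count ratios were taken as log2 with 0.5 counts added to each count for the tests, and compared by two-sided exact permutation tests in Python 3.11.15 with scipy 1.17.1. Ratios printed per library are of the counts themselves. The miRNAs named are the 10 members, 6 cluster partners, and the 3 miRNAs most like and the 3 least like miR-100-5p. miR-351-5p and miR-6367 are named for a shared seed, the brain miRNAs as a marker list, and miR-142a-3p was named after its values were seen. The members, partners and marker lists were chosen with earlier results of these data known. Sequences are from RefSeq, in which 367 of the 422 miRNAs were found, and edit distances are from edlib 1.3.9.post1. Figures were drawn with matplotlib 3.10.9.

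The marker lists give summed CPM in the B6 and BTBR mice. Endothelium lay at 2719 to 3365 and 1740 to 3182, mural and meningeal cells (3 of 4 miRNAs measured) at 6150 to 10200 and 5124 to 7741, oligodendrocytes at 2208 to 4221 and 2235 to 2868, and microglia and leukocytes (3 of 4 measured) at 323 to 408 and 324 to 535.

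The alternatives were edgeR's exact test, DESeq2 1.42.0, limma-voom (limma 3.58.1), DESeq2 size factors, upper quartile and library size scaling, scaling without members and let-7, a mean of at least 100 counts, identical miRNAs kept once, robust dispersions, a threshold of 0.05, mice blocked by replicate number, 5 counts added to ratios, and each mouse left out. The model was tested on simulated data before use.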

Additional observations from a re-analysis of the deposited data

Results flagged for a closer look

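In 13 of 58 groups of 4 mice, 1 mouse stood apart from the other 3 of its strain (Dixon's gap test at the 95% level). Normally distributed values would give this in about 5% of groups. The test was applied to CPM and count ratios without logs, so the share expected here is not known. The groups are not independent, since ratios share miRNAs.

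BTBR replicate 2 stood apart with 2812 CPM of miR-99b-5p. It also stood apart with 17230 CPM of miR-125a-5p and, at the low end, with 0.0122 reads of miR-100-5p per read of miR-125a-5p. Relative to let-7e-5p, it had 0.187 reads of miR-99b-5p and 1.15 reads of miR-125a-5p. B6 replicate 2 stood apart in the same 2 ratios, with 0.0715 reads of miR-99b-5p and 0.713 reads of miR-125a-5p per read of let-7e-5p. B6 replicate 2 also had 37.8 reads of miR-99b-5p per read of miR-99b-3p.

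For miR-10b-5p, B6 replicate 4 and BTBR replicate 1 stood apart with 348 and 125 reads of miR-100-5p per read of miR-10b-5p. The same mice had 8 and 7.86 reads of miR-10a-5p per read of miR-10b-5p. BTBR replicate 3 stood apart with 18.3 reads of miR-125b-5p per read of miR-125b-2-3p.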

How the results depend on the processing

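miR-100-5p was lower in BTBR mice under all 20 alternatives that gave it a value, with adjusted p between 0.000917 (DESeq2 Wald test) and 0.215, and it was past the threshold of 0.1 under 15 of them. It was not past it with library size scaling (log2 fold change −1.02), without BTBR replicate 1, 3 or 4, or with the replicate number as a block (−1.09, adjusted p = 0.134, edgeR quasi-likelihood). With each mouse left out in turn its log2 fold change ran from −1.29 to −0.89. Members past the threshold numbered 0 with library size scaling and 0 with the block, and 0 to 1 with each mouse left out. Taken over all miRNAs, mice with the same number did not deviate together (correlations between −0.151 and 0.0516). The labels do not say whether the numbers pair the mice, and pairing in a part of the miRNAs was not tested. Of the ratios of miR-100-5p to another member, 0 passed with the block, where 4 pairs cannot give a p below 0.125, and 7 to 8 passed with each mouse left out, where ratios that do not overlap between the strains cannot lose the call, so that this count says nothing about stability.

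Over all miRNAs, the 7 calls became 16 with edgeR's exact test, 21 with the DESeq2 Wald test, 4 with library size scaling, 3 with the block, 4 at a threshold of 0.05 and 3 to 13 with each mouse left out. They became 34 with replicate 2 of both strains left out, chosen after seeing the data. Of the calls, 2 of 7 were lower in BTBR mice, but 1 of 7 with upper quartile scaling, 0 of 4 with library size scaling, 3 of 7 with a mean of at least 100 counts, 6 of 16 with the exact test, 6 of 21 with DESeq2, 4 of 7 without B6 replicate 3, 4 of 8 without B6 replicate 4, 14 of 34 with replicate 2 of both strains left out, and 0 of 3 or 4 with the block or without BTBR replicate 1, 3 or 4.

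Signs turned among members that were not called. miR-99a-5p reached 0.095 with library size scaling and −0.26 to 0.055 with each mouse left out. miR-99b-5p reached −0.25 with replicate 2 of both strains left out and −0.48 to 0.86 with each mouse left out, and miR-125a-5p −0.042 to 0.60. miR-125b-5p lay at 0.00012 with DESeq2, 0.00017 with its size factors, 0.048 with upper quartile scaling, 0.13 with library size scaling, 0.013 with scaling without members and let-7, 0.0050 with identical miRNAs kept once and −0.12 to 0.067 with each mouse left out. let-7e-5p reached 0.024 with library size scaling. With each mouse left out, log2 fold changes ran from −0.088 to 0.15 for miR-125b-2-3p, −0.076 to 0.46 for miR-125b-1-3p, −0.73 to 0.11 for let-7c-1-3p and −0.15 to 0.21 for let-7e-3p.

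With each mouse left out, log2 ratio differences ran from −1.46 to 0.20 for miR-100-5p to miR-10b-5p, −0.15 to 0.27 for miR-125a-5p to miR-125a-3p, −0.20 to 0.062 for miR-125b-5p to miR-125b-2-3p and −0.37 to 0.10 for miR-125b-2-3p to miR-125b-1-3p. They ran from −0.0030 to 1.59 for miR-10a-5p to miR-10b-5p, −0.43 to 0.22 for miR-99a-5p to miR-99b-5p and −0.32 to 0.59 for miR-99b-5p to let-7e-5p. The cause of these shifts was not tested. The lowest count of miR-10b-5p in a library was 4 reads and that of let-7c-1-3p 2 reads.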
